A study of Mus musculus with 12 samples.

Results

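Liver transcripts of 30 genes of glucose production, glycolysis, glycogen, fructose use and insulin signaling were read in 12 female mice. The genes were chosen by name for these pathways, and the rows with those symbols were taken from a table of 22537 genes. All 30 were found and all 30 passed the filter on low counts, with at least 348 reads in any library. The mice were C57BL/6, were 6 months of age and had all eaten a high-fat diet over 13 weeks. Each of the 4 genotypes had 3 libraries. The knockouts, AHR KO and ARNT KO, are described as hepatic losses of these proteins. Their controls, AHR Flox and ARNT Flox, keep the gene but with loxP sites around part of it, as floxed lines do by definition. The sources used here do not say which recombinase was used, what part of each gene it removed or whether the mice were fed or fasted at collection.

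AHR, the aryl hydrocarbon receptor, is a ligand-activated transcription factor that binds DNA together with ARNT, and ARNT is also the partner of the hypoxia-inducible factors. The liver stores glucose as glycogen after a meal and releases it between meals by breaking glycogen down and by gluconeogenesis, the making of new glucose from lactate, amino acids and glycerol. Insulin acts through its receptor, the IRS adaptor proteins and AKT to keep FOXO1 out of the nucleus, which lowers the transcription of gluconeogenic genes and of IGFBP1. Fructose enters below the main control points of glycolysis, through ketohexokinase and the triokinase that Dak encodes.

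Levels are given in CPM, a gene's reads relative to those of its library, scaled between libraries with TMM. Log2 changes come from edgeR's quasi-likelihood F test in a fit of all genes. Their standard errors (SE) were computed from it, as the absolute log2 change over the square root of F. Values are from all 12 libraries unless a fit of 11 is named. A gene was called where the p adjusted by the Benjamini-Hochberg method over all genes tested was under 0.05. Total counts ran from 23585909 to 33255004 per library. Arnt stood at 25.2, 23.9 and 18.9 CPM in ARNT KO against 47.8, 52.5 and 50.3 CPM in ARNT Flox (edgeR log2 change -1.15, adjusted p = 0.00601). Ahr did not drop in livers labelled AHR KO, at 84.3, 94.8 and 80.3 CPM against 53.9, 78.8 and 72.4 CPM in AHR Flox (edgeR adjusted p = 0.470). That label is not checked by reads summed over the gene, since the part of Ahr that was removed is not known here.

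ARNT KO replicate 3 was known from earlier results of these data to stand apart, so each comparison is also given without it, from a fit of 11 libraries. Calls that appear only without this library rest on that choice. It was the lowest of all 12 libraries for 12 of the 30 genes and the highest for 3, where it was the lowest for 21.5% and the highest for 23.4% of all genes tested. Its summed cholangiocyte markers reached 308 CPM against 45.8 to 112 CPM elsewhere, and its Kupffer cell and macrophage markers 657 CPM against 302 to 483 CPM. Alb, which encodes serum albumin, stood at 5737 CPM there and at 5489.7 to 7087 CPM in AHR KO, against 51915 to 89258 CPM in the other 8 libraries. Hepatocyte markers without Alb summed to between 43667 CPM, in ARNT KO replicate 3, and 66628 CPM, in AHR KO replicate 1. That sum was higher in every AHR KO library than in every AHR Flox library. Its part in the levels of the 30 genes was not tested. Skeletal muscle markers summed to at most 2.12 CPM. Hba-a1, Hbb-b1, Prss1 and Gcg were at 0 in every library. In bulk liver, fewer cells of a type and less RNA per cell cannot be told apart.

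Before the levels, the DNA ahead of Dak, Khk, Pygl, Igfbp1 and G6pc is shown. The reason is that AHR with ARNT, ARNT with the hypoxia-inducible factors, and FOXO1 are known to bind short motifs. Windows of other genes, Gckr and Pfkl among them, are not printed. RefSeq start sites (build GRCm38.p6, the patch release of mm10) were matched for 25 of the 30 genes, in 37 windows of 250 bases before a start. Crtc2, Gys2, Gpd1, Insr and Ppp1r3b had no entry. In the stretches that follow, capitals mark matches, on either strand, to GCGTG (the core of the AHR-ARNT element), ACGTG (the core of the hypoxia element), CACGTG (the E-box, which contains ACGTG) and CAAAACA (the insulin response element of FOXO1). The stretches of Dak, Pygl, Igfbp1 and G6pc leave out annotated untranslated sequence, and that of Khk is the 30 bases around its E-box, in a 5′ untranslated region of 1 annotated transcript.
Dak, chr19:10604274-10604508, minus strand: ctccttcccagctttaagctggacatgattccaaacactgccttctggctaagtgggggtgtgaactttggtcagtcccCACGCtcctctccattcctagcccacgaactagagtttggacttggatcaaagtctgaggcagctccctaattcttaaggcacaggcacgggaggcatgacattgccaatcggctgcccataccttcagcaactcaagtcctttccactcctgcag
Khk, chr5:30921476-30921505, plus strand: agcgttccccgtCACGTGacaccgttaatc
Pygl, chr12:70227684-70227933, minus strand: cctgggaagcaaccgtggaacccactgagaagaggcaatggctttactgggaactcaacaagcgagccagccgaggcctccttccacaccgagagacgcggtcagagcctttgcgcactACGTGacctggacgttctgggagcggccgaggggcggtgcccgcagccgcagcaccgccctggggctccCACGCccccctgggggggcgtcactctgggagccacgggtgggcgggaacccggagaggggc
Igfbp1, chr11:7197537-7197781, plus strand: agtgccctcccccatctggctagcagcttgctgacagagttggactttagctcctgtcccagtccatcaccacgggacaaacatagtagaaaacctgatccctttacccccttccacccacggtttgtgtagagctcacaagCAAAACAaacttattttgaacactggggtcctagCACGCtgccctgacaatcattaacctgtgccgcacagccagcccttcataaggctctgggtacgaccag
G6pc, chr11:101367466-101367560, plus strand: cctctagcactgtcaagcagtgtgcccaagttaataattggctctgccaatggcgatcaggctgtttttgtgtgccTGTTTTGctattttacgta

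The Dak window lies ahead of a start site inside the annotated locus and holds 1 GCGTG core, read as CACGC. The Pygl window holds an ACGTG core and a GCGTG core. Igfbp1 has 1 CAAAACA and 1 GCGTG core, and G6pc has 1 CAAAACA, read as TGTTTTG. Over all 37 windows, GCGTG was found in 32.43%, beside 28.16% of the 32851 windows of all genes. ACGTG was found in 29.73% beside 16.57%, CACGTG in 16.22% beside 6.021%, and CAAAACA in 13.51% beside 5.561%. The FOXO consensus GTAAACA was found in 0 of the 37 windows and in 3.166% of all windows. Windows of 1 gene can overlap, and a match shows letters in a window, not binding.

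With all 12 libraries in the fit, edgeR called none of the 30 genes in any comparison, and the calls described next came without ARNT KO replicate 3. ARNT Flox livers held less transcript for fructose metabolism (Dak, Khk), glycogen breakdown (Pygl) and glycolytic control (Gckr, Pfkl) than did AHR Flox livers, by 1.23-fold to 1.75-fold, in a comparison where 4.51% of all genes were called lower. Without ARNT KO replicate 3, ARNT KO livers held more Dak and Pygl transcript than ARNT Flox livers. In that comparison 0.37% of all genes were called higher. In ARNT KO replicate 3, Dak lay above every ARNT Flox library, at 440.5 CPM, and Pygl below every one, at 351 CPM. Both comparisons share the ARNT Flox libraries. In AHR KO, Igfbp1 stood 3.29-fold above AHR Flox over all 12 libraries without passing the test, and 1 of the 3 libraries carried that difference.

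In numbers, edgeR called 0 of the 30 genes between AHR KO and AHR Flox, beside 0.0788% of all genes tested. It called 0 between ARNT KO and ARNT Flox, beside 0.0573%, and 0 between ARNT Flox and AHR Flox, beside 0.329%. For the difference between the effects of the knockouts it called 0, beside 0.043%. At an unadjusted p under 0.05 there were 1 for AHR KO (11.9% of all genes), 3 for ARNT KO (5.88%), 1 for the difference (9.51%) and 8 between the control lines, all 8 lower in ARNT Flox (9.33% of all genes in that direction). Limma-voom called 0 of the 30 for AHR KO (0.0716% of all genes), ARNT KO (0.0358%), the difference (0.0501%) and the control lines (0.222%). DESeq2 called none for AHR KO (2.57% of all genes) or for the difference (1.06%), Dak for ARNT KO (0.401%), and Dak, Pygl and Khk between the control lines (4.1%).

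Without ARNT KO replicate 3, edgeR called 0 of the 30 genes for AHR KO (0.966% of all genes) and 0 for the difference between the knockout effects (1.38%). At an unadjusted p under 0.05 there were 1 (16.8% of all genes) and 3 (17.2%). It called Dak and Pygl as higher in ARNT KO, beside 0.37% of all genes called higher, and 7 were higher at an unadjusted p under 0.05 (7.48%). It called Dak, Pygl, Khk, Gckr and Pfkl as lower in ARNT Flox than in AHR Flox, beside 4.51% of all genes called lower, and 11 were lower at an unadjusted p under 0.05 (13.2%). ARNT Flox is the reference of the first comparison and the subject of the second, so both share its libraries. Some marker sums were apart in the same libraries. Kupffer cell and macrophage markers summed to 403 and 416 CPM in ARNT KO replicates 1 and 2. In ARNT Flox they summed to 472 to 483 CPM. Pancreas markers, of which 1 of 6 was tested, summed to 15.7 and 13.7 CPM against 6.64 to 8.5 CPM. Hepatocyte markers summed to 108309 and 107160 CPM against 119864 to 141825 CPM. That sum includes Alb, at 51915 and 53672 CPM against 69684 to 87874 CPM, and without Alb the groups overlapped. The sums of stellate cell, endothelial, cholangiocyte, lymphocyte, erythrocyte, skeletal muscle and adipocyte markers overlapped between those ARNT KO libraries and ARNT Flox. The part of any of these markers in the calls for ARNT KO was not tested.

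**Figure D1:**
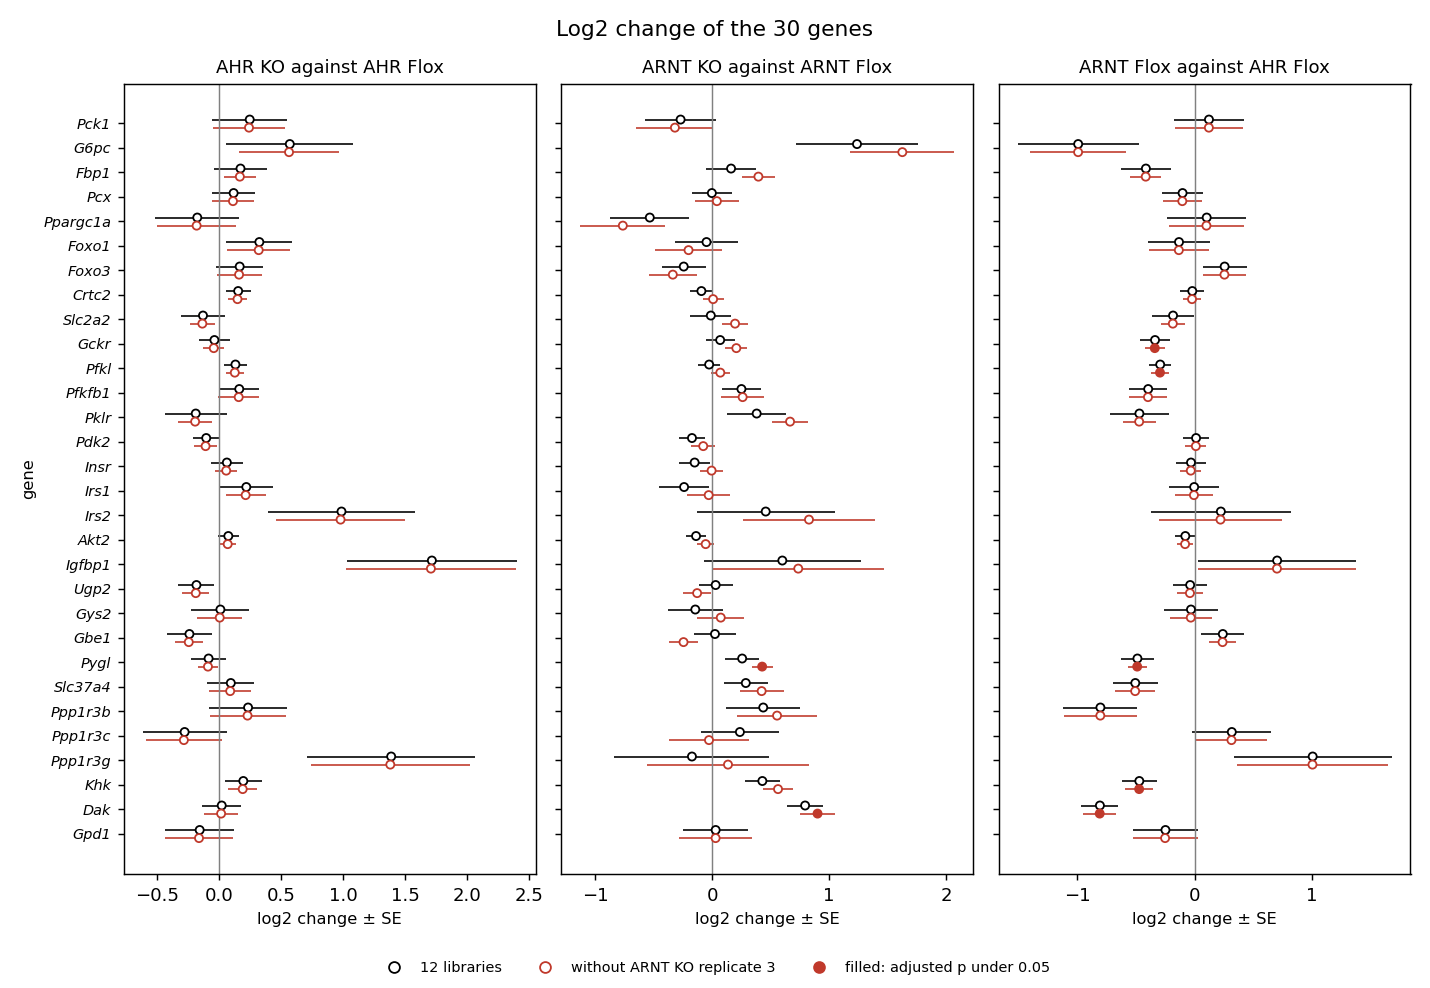
Log2 change ± SE of each of the 30 genes (rows, in the order of their roles) for AHR KO over its control, ARNT KO over its control, and ARNT Flox over AHR Flox (panels, left to right). Black is the fit of 12 libraries and red the fit without ARNT KO replicate 3; filled points passed an adjusted p under 0.05, which were 0, 2 and 5 genes in the red fit.

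The median log2 change of the 30 genes in ARNT Flox against AHR Flox was -0.09, beside -0.00075 for all genes tested, and 21 of the 30 were lower. In AHR KO the median was 0.11 beside 0.0052, with 20 of the 30 higher. In ARNT KO it was 0.03 beside 0.0090, with 16 higher and 14 lower. In 11 of the 30 genes the 3 ARNT Flox libraries lay wholly below the 3 AHR Flox libraries, as they did in 17.7% of all genes tested, and in 0 of the 30 wholly above (18.1%). Those 11 were G6pc, Fbp1, Gckr, Pfkl, Pklr, Akt2, Pygl, Slc37a4, Ppp1r3b, Khk and Dak. Markers of other cell types also lay at different levels: stellate cell markers summed to 329.6 to 407 CPM in ARNT Flox against 239 to 318 CPM in AHR Flox, Kupffer cell and macrophage markers to 472 to 483 CPM against 302 to 464 CPM, and endothelial markers to 243 to 285 CPM against 204 to 241 CPM. Cholangiocyte markers summed to 71.6 to 112 CPM against 59.8 to 69.9 CPM, and lymphocyte markers to 6.49 to 9.55 CPM against 4.51 to 6.20 CPM. Pancreas markers were lower, at 6.64 to 8.5 CPM against 12.6 to 14.3 CPM. Only 1 of those 6 markers passed the filter on low counts, and it lay wholly below AHR Flox. Of single markers, 4 of 7 for Kupffer cells and macrophages, 2 of 6 for stellate cells and 2 of 6 for lymphocytes lay wholly above AHR Flox, with 0 of 6 for endothelial cells and 0 of 5 for cholangiocytes, and 3 of 9 hepatocyte markers lay wholly below with none above. Their part in the differences was not tested, and the floxed gene and anything else that differs between the control lines cannot be told apart.

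**Figure D2:**
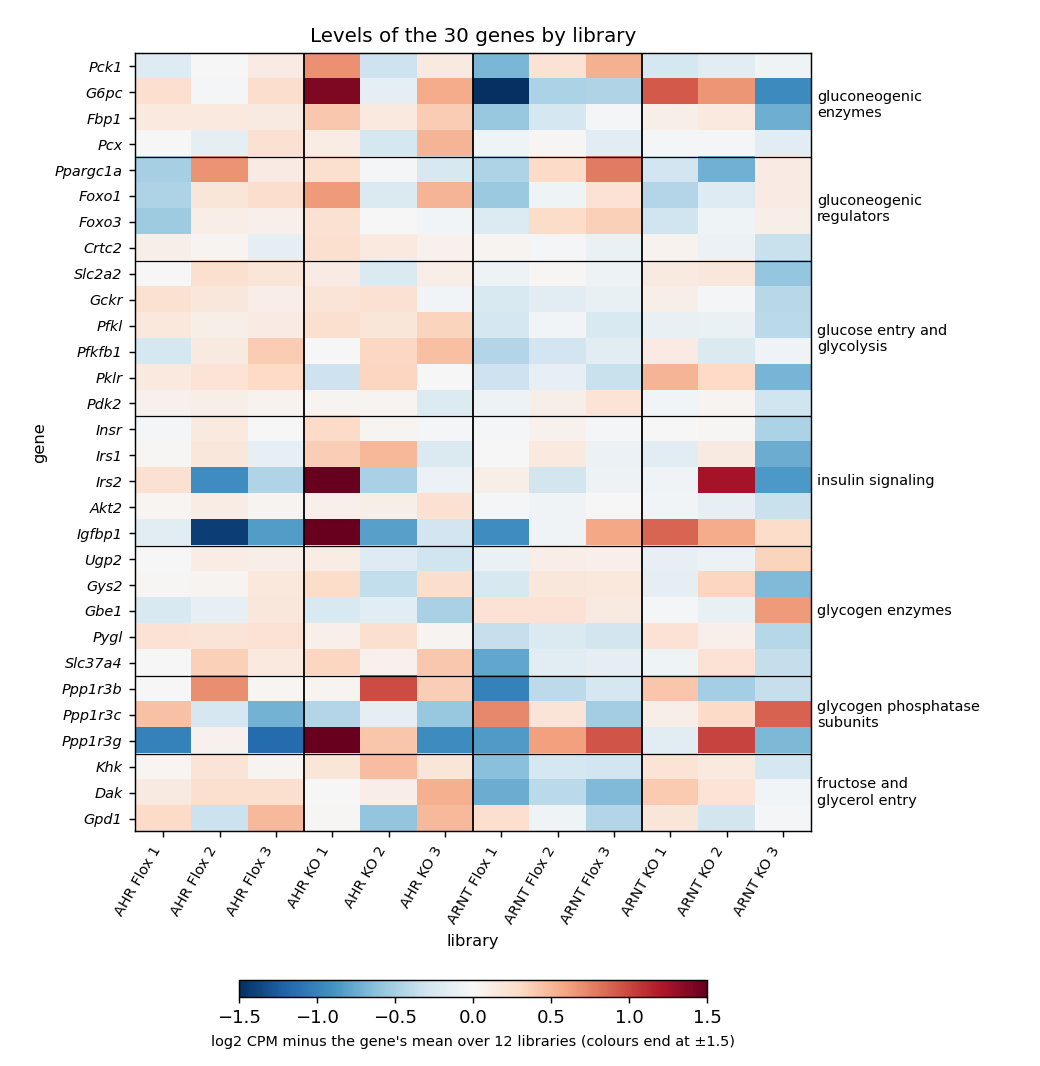
Level of each of the 30 genes (rows, grouped by role) in each of the 12 libraries (columns), as log2 CPM minus the gene's mean over the libraries; red is above and blue below that mean. ARNT Flox is pale to dark blue for Dak, Khk, Pygl, Slc37a4 and Ppp1r3b, AHR KO replicate 1 is dark red for G6pc, Irs2, Igfbp1 and Ppp1r3g, and ARNT KO replicate 3 is the lowest library in 12 rows.

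Of the gluconeogenic enzymes, Pck1 encodes phosphoenolpyruvate carboxykinase, which makes phosphoenolpyruvate from oxaloacetate. Per kilobase of exon it had the highest level of the 30 genes, at 1136 CPM, followed by Fbp1 at 813 CPM and Khk at 277 CPM. Pck1 (chromosome 2, 173153073 to 173159274, mm10) stood at 3298, 3774 and 4117 CPM in AHR Flox, 6084, 3042 and 4153 CPM in AHR KO, 2351, 4369.6 and 5451 CPM in ARNT Flox and 3148, 3348 and 3595 CPM in ARNT KO. The groups overlapped, and no edgeR test passed (log2 change 0.25 ± 0.30 SE in AHR KO, adjusted p = 0.812, and -0.27 ± 0.30 in ARNT KO, adjusted p = 0.995). The highest value was in AHR KO replicate 1 and the lowest in ARNT Flox replicate 1.

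G6pc (chromosome 11, 101367716 to 101377903) encodes the catalytic subunit of glucose-6-phosphatase, which frees glucose for release. It varied more, by 10.7-fold between the highest and the lowest library. It stood at 339, 282 and 342 CPM in the AHR Flox livers, with AHR KO at 750.5, 259 and 421 CPM. It stood at 70.1, 205 and 209 CPM in the ARNT Flox livers, with ARNT KO at 541, 451 and 147 CPM. ARNT Flox lay wholly below AHR Flox, and ARNT KO replicates 1 and 2 lay above every ARNT Flox library while replicate 3 lay among them. In edgeR the log2 change in ARNT KO was 1.24 ± 0.52 SE (adjusted p = 0.799), and 1.62 ± 0.44 SE without ARNT KO replicate 3 (adjusted p = 0.103). Between the control lines it was -0.99 ± 0.52 SE (adjusted p = 0.303). In AHR KO it was 0.57, and 0.07 without AHR KO replicate 1 (edgeR adjusted p = 0.722 and 0.981).

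Fbp1, fructose-1,6-bisphosphatase, showed the same arrangement of the control lines, with 1481 to 1496 CPM in AHR Flox and 909 to 1317 CPM in ARNT Flox. ARNT KO replicates 1 and 2 were at 1436 and 1492 CPM and replicate 3 at 815 CPM. The edgeR log2 change between the control lines was -0.42, with an adjusted p of 0.297 over 12 libraries and 0.0613 over 11. Pcx, pyruvate carboxylase, ran from 581 to 994 CPM over the 12 libraries with overlapping groups, and its edgeR adjusted p was at least 0.721 in each of the 4 comparisons over 12 or 11 libraries.

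For the 4 regulators of gluconeogenesis, log2 changes in ARNT KO ran from -0.53 to -0.05 over 12 libraries and from -0.76 to 0.0075 over 11, with no edgeR adjusted p under 0.918 and 0.325. In AHR KO 3 of 4 were above 0 with none called. Ppargc1a (chromosome 5, 51454249 to 52115853), the coactivator PGC-1α, stood at 18.3, 41.1 and 28.1 CPM in AHR Flox and 30.4, 25.2 and 21.8 CPM in AHR KO. It stood at 18.6, 31.4 and 44.2 CPM in ARNT Flox and 21.1, 15.6 and 28.1 CPM in ARNT KO. All 4 groups overlapped, and the log2 change in ARNT KO was -0.53 ± 0.34 SE over 12 libraries and -0.76 ± 0.36 SE over 11 (edgeR adjusted p = 0.918 and 0.325). Foxo1 (chromosome 3, 52268337 to 52350109), the insulin-restrained transcription factor, was at 62.8, 98.9 and 105 CPM in AHR Flox, 135, 74.8 and 124 CPM in AHR KO, 59.1, 83.1 and 101 CPM in ARNT Flox and 64.1, 76.2 and 94.2 CPM in ARNT KO. Those groups overlapped too (edgeR adjusted p at least 0.527 in every comparison over 12 or 11 libraries). Its relative Foxo3 ran from 23.4 to 43.5 CPM and Crtc2, a CREB coactivator that glucagon switches on, from 30.5 to 45.1 CPM.

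In the group of glucose entry and glycolysis, 2 of 6 genes were called lower in ARNT Flox in the fit of 11 libraries, beside 4.51% of all genes. Gckr (chromosome 5, 31297266 to 31327302) encodes the regulatory protein that holds glucokinase in the nucleus. It stood at 303, 292 and 277 CPM in the AHR Flox livers, with AHR KO at 295, 303 and 252 CPM. It stood at 221, 230.4 and 239 CPM in the ARNT Flox livers, with ARNT KO at 274, 255 and 194 CPM. Every ARNT Flox library lay below every AHR Flox library, and ARNT KO replicate 3 lay below all of them. Without that library Gckr was lower in ARNT Flox by 1.27-fold (edgeR log2 change -0.34 ± 0.08 SE, adjusted p = 0.0298). With all 12 libraries the change was also -0.34 but its SE was 0.12 and the adjusted p 0.190.

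Pfkl (chromosome 10, 77986947 to 78009807), the liver subunit of phosphofructokinase, stood at 54.1, 51.4 and 52.5 CPM in AHR Flox against 40.3, 47.1 and 41.4 CPM in ARNT Flox. AHR KO, at 57.2, 55.0 and 60.8 CPM, lay wholly above AHR Flox, as in 11.7% of all genes, and ARNT KO was at 44.8, 45.1 and 36.6 CPM. The difference between the control lines was 1.23-fold without ARNT KO replicate 3 (edgeR log2 change -0.30 ± 0.07 SE, adjusted p = 0.0298) and had an adjusted p of 0.149 with it. In AHR KO the log2 change was 0.13 ± 0.09 SE and did not pass (edgeR adjusted p = 0.625).

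Pklr, the liver pyruvate kinase, was at 461 to 509.6 CPM in AHR Flox and 329.7 to 380.5 CPM in ARNT Flox, with an edgeR log2 change of -0.47 (adjusted p = 0.315 over 12 libraries and 0.0521 over 11). ARNT KO replicates 1 and 2 reached 589.7 and 512 CPM while replicate 3 held 257 CPM, so that the ARNT KO log2 change was 0.38 with that library and 0.67 without it (edgeR adjusted p = 0.934 and 0.0659). Slc2a2 (chromosome 3, 28697903 to 28728361), the glucose transporter GLUT2, was at 443, 525 and 507 CPM in AHR Flox, 486, 384 and 477 CPM in AHR KO, 422, 452 and 423 CPM in ARNT Flox and 488, 499.9 and 299 CPM in ARNT KO. ARNT KO replicate 3 was the lowest library, and ARNT KO replicates 1 and 2 lay above every ARNT Flox library. No comparison passed, with an edgeR adjusted p of at least 0.575 over 12 libraries and at least 0.258 over 11. Pdk2 (chromosome 11, 95026258 to 95041371), a kinase that switches off pyruvate dehydrogenase, varied least of the 30, by 1.42-fold over the libraries. It stood at 168, 170.2 and 167 CPM in AHR Flox, 165, 165 and 139.5 CPM in AHR KO, 153, 171 and 185 CPM in ARNT Flox and 156, 165 and 130.4 CPM in ARNT KO. All 3 AHR KO libraries were below AHR Flox, as in 9.46% of all genes, by a log2 change of -0.10 ± 0.11 SE (edgeR adjusted p = 0.772). Pfkfb1, which makes and removes the phosphofructokinase activator fructose 2,6-bisphosphate, ran from 25.8 to 47.9 CPM, and its log2 change between the control lines was -0.40 (edgeR adjusted p = 0.218).

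Within insulin signaling, transcripts of the receptor and of Akt2 varied little and those of Irs2 and Igfbp1 varied most. Insr (chromosome 8, 3150922 to 3279649), the insulin receptor, was at 195, 219 and 198 CPM in AHR Flox, 241, 203 and 195 CPM in AHR KO, 196, 207 and 195 CPM in ARNT Flox and 196, 200.1 and 143 CPM in ARNT KO. Apart from AHR KO replicate 1 at the top and ARNT KO replicate 3 at the bottom, the libraries lay between 195 and 219 CPM. Akt2, the main hepatic AKT kinase, ran from 93.0 to 137 CPM. ARNT Flox at 113 to 118 CPM lay just below AHR Flox at 119 to 126 CPM, a log2 change of -0.08 (edgeR adjusted p = 0.614 over 12 libraries and 0.451 over 11). Irs1, an insulin receptor substrate, ran from 21.3 to 50.7 CPM and had the lowest mean level per kilobase of exon, at 3.99 CPM.

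Igfbp1 (chromosome 11, 7197787 to 7202546) encodes a secreted binding protein for insulin-like growth factors and is a classic transcript that insulin lowers. It stood at 110.1, 46.4 and 68.9 CPM in the AHR Flox livers, with AHR KO at 569.6, 70.2 and 101 CPM. It stood at 64.5, 119 and 184 CPM in the ARNT Flox livers, with ARNT KO at 225, 181 and 149 CPM. AHR KO replicate 1 was the highest library, and the other AHR KO libraries lay inside the AHR Flox range. The log2 change in AHR KO was 1.72 ± 0.69 SE (edgeR adjusted p = 0.348), and 0.18 without AHR KO replicate 1 (adjusted p = 0.936). In ARNT KO the log2 change was 0.60 (adjusted p = 0.995).

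The same AHR KO library was the highest of the 12 for 9 of the 30 genes, where it was the highest for 10.2% of all genes tested, and the lowest for none. Those 9 were Pck1, G6pc, Fbp1, Foxo1, Crtc2, Insr, Irs2, Igfbp1 and Ppp1r3g. Irs2, the insulin receptor substrate that insulin lowers through FOXO1, stood at 71.9 CPM there and at 16.2 and 21.4 CPM in the other AHR KO libraries, against 11.9 to 26.6 CPM in AHR Flox. Its log2 change in AHR KO was 0.99, and 0.02 without that library (edgeR adjusted p = 0.557 and 0.993). The counterpart was ARNT Flox replicate 1, the lowest library for 8 genes: Pck1, G6pc, Foxo1, Pfkfb1, Slc37a4, Ppp1r3b, Khk and Dak (10.1% of all genes tested). Fed or fasted state could not be compared with these values.

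**Figure D3:**
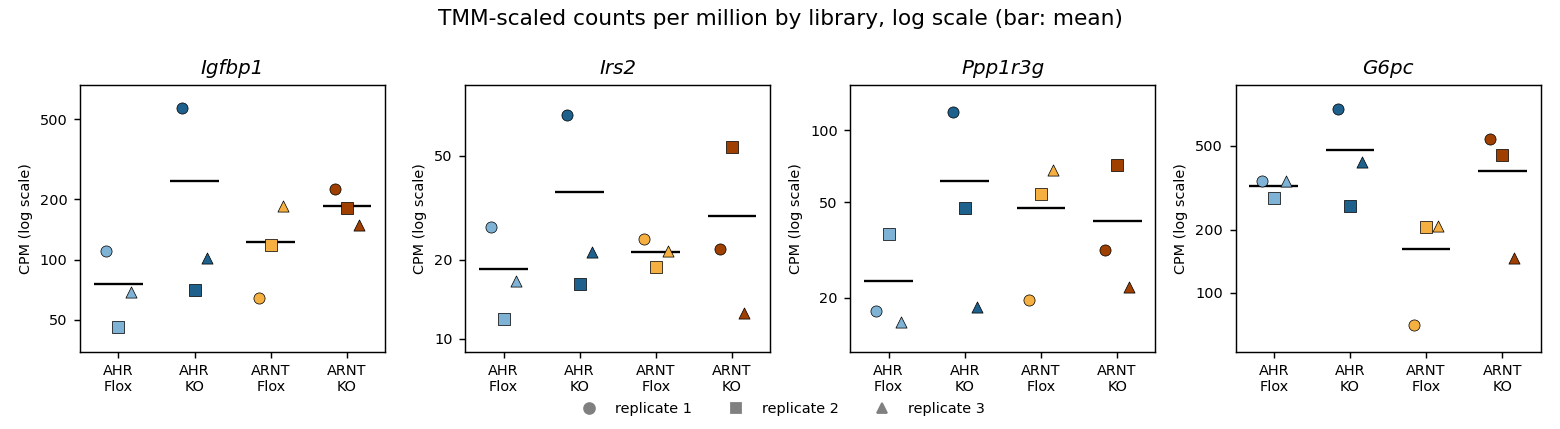
CPM on a log axis of Igfbp1, Irs2, Ppp1r3g and G6pc in every library, by genotype; the bar is the group mean and the marker shape the replicate number, which ties no animals. AHR KO replicate 1 is the highest of 12 libraries in each panel, at 569.6, 71.9, 119 and 750.5 CPM.

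Of the glycogen enzymes, Pygl (chromosome 12, 70190815 to 70227683) encodes liver glycogen phosphorylase, which releases glucose 1-phosphate from glycogen. It stood at 549, 542 and 549.7 CPM in the AHR Flox livers, with AHR KO at 501, 560.5 and 486 CPM. It stood at 373, 406 and 390.1 CPM in the ARNT Flox livers, with ARNT KO at 548, 497 and 351 CPM. The AHR Flox and ARNT Flox groups were each narrow and did not overlap. ARNT KO replicates 1 and 2 lay above every ARNT Flox library and replicate 3 below. In the fit of 11 libraries Pygl was 1.40-fold lower in ARNT Flox than in AHR Flox (edgeR log2 change -0.49 ± 0.08 SE, adjusted p = 0.00534) and rose by 1.34-fold in ARNT KO over ARNT Flox (log2 change 0.43 ± 0.09 SE, adjusted p = 0.0464). With ARNT KO replicate 3 the adjusted p were 0.140 and 0.884. The call in ARNT KO was also lost in the fit of 11 libraries with the replicate number as a block (edgeR adjusted p = 0.112).

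Slc37a4, the transporter that brings glucose 6-phosphate to glucose-6-phosphatase, followed the control lines as well, at 231 to 294 CPM in AHR Flox and 134 to 211 CPM in ARNT Flox (edgeR log2 change -0.51, adjusted p = 0.194 over 12 libraries and 0.0764 over 11). Ugp2 (chromosome 11, 21321126 to 21371267), which makes UDP-glucose, had the highest mean CPM of the glycogen enzymes. It stood at 594, 639.8 and 633 CPM in AHR Flox, 642, 518 and 483 CPM in AHR KO, 556, 635 and 626 CPM in ARNT Flox and 547, 558 and 748 CPM in ARNT KO. The groups overlapped, and ARNT KO replicate 3 was the highest library (edgeR adjusted p at least 0.678 over 12 libraries and at least 0.408 over 11). That library was also the highest for Gbe1, the glycogen branching enzyme, at 338 CPM against 156 to 253 CPM elsewhere. With it left out, Gbe1 in ARNT KO lay below ARNT Flox in both libraries, at 215 and 202 CPM against 238 to 253 CPM (log2 change -0.25, edgeR adjusted p = 0.361). Gys2, the liver glycogen synthase, ran from 191 to 379 CPM with overlapping groups.

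The subunits that target protein phosphatase 1 to glycogen, and so favour glycogen synthesis, varied between mice more than the enzymes did. Ppp1r3b (chromosome 8, 35375694 to 35388139), also known as the liver subunit G-L, was at 271, 441 and 277 CPM in AHR Flox, 279.6, 535 and 349 CPM in AHR KO, 135, 207 and 225 CPM in ARNT Flox and 362, 191 and 213 CPM in ARNT KO. ARNT Flox lay wholly below AHR Flox, by a log2 change of -0.80 ± 0.32 SE that did not pass (edgeR adjusted p = 0.206). Ppp1r3g (chromosome 13, 35958824 to 35970388) stood at 17.6, 36.8 and 15.9 CPM in AHR Flox, 119, 47.1 and 18.3 CPM in AHR KO, 19.6, 54.0 and 68.0 CPM in ARNT Flox and 31.6, 71.6 and 22.1 CPM in ARNT KO. It ranged over 7.49-fold with every group overlapping. Its log2 change in AHR KO was 1.39 ± 0.68 SE (edgeR adjusted p = 0.449), and 0.48 without AHR KO replicate 1 (adjusted p = 0.860). Ppp1r3c, another such subunit, ran from 17.5 to 52.6 CPM, with its highest value in ARNT KO replicate 3.

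Of the fructose genes, Dak (chromosome 19, 10592197 to 10605482), named Tkfc in later annotations, encodes the triokinase, which phosphorylates glyceraldehyde from fructose. It stood at 497, 535 and 536 CPM in the AHR Flox livers, with AHR KO at 453, 484 and 654 CPM. It stood at 270.3, 340.1 and 285 CPM in the ARNT Flox livers, with ARNT KO at 591, 520.4 and 440.5 CPM. Every ARNT Flox library lay below all 9 others, and the ARNT KO libraries covered the AHR Flox range. ARNT KO lay wholly above ARNT Flox in Dak alone of the 30 genes (5.93% of all genes), and wholly below in none (4.9%).

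In the fit of 11 libraries Dak rose by 1.87-fold in ARNT KO over ARNT Flox (edgeR log2 change 0.90 ± 0.15 SE, adjusted p = 0.0178) and was 1.75-fold lower in ARNT Flox than in AHR Flox, a log2 change of -0.81 ± 0.14 SE (adjusted p = 0.00627). With all 12 libraries the log2 changes were 0.79 ± 0.16 SE (adjusted p = 0.241) and -0.81 ± 0.16 SE (adjusted p = 0.0632). The lower level in ARNT Flox also passed without AHR KO replicate 3 (edgeR adjusted p = 0.0380) and without ARNT KO replicate 1 (adjusted p = 0.0478). The knockout effects on Dak differed by 0.88 ± 0.21 SE on the log2 scale over 11 libraries and by 0.77 ± 0.22 SE over 12, and neither passed (edgeR adjusted p = 0.0676 and 0.308). In AHR KO the log2 change was 0.02 ± 0.16 SE, with an adjusted p of 0.979.

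Khk (chromosome 5, 30921436 to 30931248), ketohexokinase, makes fructose 1-phosphate, upstream of the step that Dak serves. It stood at 497, 559 and 502 CPM in AHR Flox, 557, 673 and 555 CPM in AHR KO, 315, 408.2 and 400.0 CPM in ARNT Flox and 562, 542 and 408.1 CPM in ARNT KO. ARNT Flox was wholly below AHR Flox, and ARNT KO replicate 3 lay level with the highest ARNT Flox library. Khk was 1.39-fold lower in ARNT Flox in the fit of 11 libraries (edgeR log2 change -0.47 ± 0.12 SE, adjusted p = 0.0287), and the adjusted p was 0.149 over 12. In ARNT KO its log2 change of 0.43 ± 0.15 SE, or 0.56 ± 0.13 SE without replicate 3, did not pass (edgeR adjusted p = 0.685 and 0.0640). Gpd1, glycerol-3-phosphate dehydrogenase, which ties glycerol and glycolysis together, ran from 134 to 284 CPM with overlapping groups (edgeR adjusted p at least 0.590 in every comparison over 12 or 11 libraries).

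**Figure D4:**
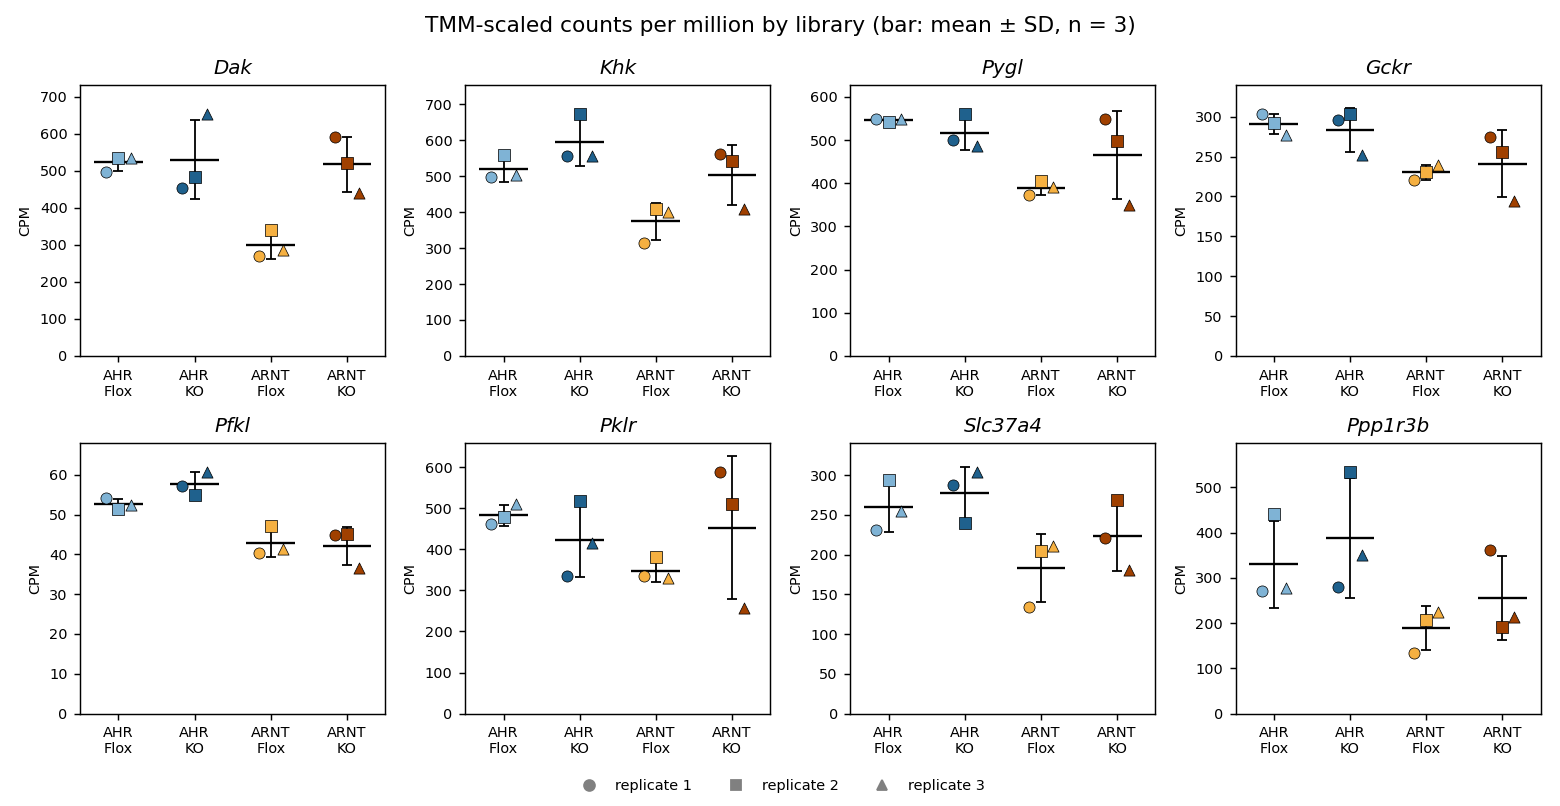
CPM by genotype of Dak, Khk, Pygl, Gckr, Pfkl, Pklr, Slc37a4 and Ppp1r3b in every library, with the mean ± SD of 3 libraries; the axes start at 0. In all 8 panels the 3 ARNT Flox points lie below the 3 AHR Flox points; in ARNT KO, replicate 3 is the lowest point in 7 panels, the exception being Ppp1r3b.

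Leaving out ARNT KO replicate 3 widened the set of genes in which ARNT KO lay wholly above ARNT Flox from 1 to 9 (G6pc, Fbp1, Slc2a2, Gckr, Pklr, Pygl, Slc37a4, Khk and Dak), where the share of all genes tested went to 19%; Gbe1 alone lay wholly below (18.6%). That library was below both of its group mates in 20 of the 30 genes (41.5% of all genes) and above both in 7 (41.6%). In 8 of those 9 genes, Slc2a2 being the exception, ARNT Flox also lay wholly below AHR Flox. Both comparisons use the same ARNT Flox libraries, so they are not separate evidence for these genes.

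When only the AHR Flox and ARNT Flox libraries were fitted, 6 of the 30 genes were called, all lower in ARNT Flox: Dak, Pygl, Khk, Gckr, Pfkl and Pklr (4.84% of all genes were called lower). Same-numbered libraries of the control lines deviated together to a small degree, with residual correlations of 0.327, 0.154 and 0.101. With the replicate number as a block in the fit of 12 libraries, 0 of the 30 were called and the share of all genes went from 0.329% to 0.165%. In the fit of the control lines alone with the block, 11 of the 30 were called (15.7% of all genes): Dak, Pygl, Khk, Gckr, Pfkl, Pklr, Ppp1r3b, Slc37a4 and Pfkfb1 lower in ARNT Flox, and Foxo3 and Ppp1r3c higher. With the block in the fit of 11 libraries, Dak was called for ARNT KO (0.234% of all genes called higher) and 5 genes as lower in ARNT Flox (4.14%). The last 2 fits were chosen after seeing the data.

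Beyond the 30, a further 129 genes of 6 lists (glycolysis, pyruvate oxidation, gluconeogenesis, glycogen, insulin signaling, and fructose, polyol and glycerol) were read, of which 124 were tested over 12 libraries and 125 over 11. In the fit of 12 libraries edgeR called 0 of the 124 in any of the 4 comparisons. In the fit of 11 libraries 15 of the 125 were called between the control lines, or 12%, beside 10.9% of all genes, a share near the background. Of these, 5 were higher in ARNT Flox (4%, beside 6.38% of all genes) and 10 lower (8%, beside 4.51%). For ARNT KO 2 were called (1.37% of all genes), for AHR KO 1 (0.966%) and for the difference 1 (1.38%). The genes are named next as a description of the lists. Of the 23 tested genes of glycolysis, Hk2, Hk3 and Pkm2 were higher, and Ldha and Mlxipl were among those lower. Hk2, a hexokinase that adult hepatocytes hold at a low level, was at 6.31, 4.76 and 6.87 CPM in ARNT Flox against 2.28, 1.64 and 1.90 CPM in AHR Flox (edgeR log2 change 1.61, adjusted p = 0.000489). It fell in ARNT KO over 11 libraries, to 3.04 and 3.24 CPM, while replicate 3 held 7.15 CPM (log2 change -0.92, adjusted p = 0.0422). The effects of the knockouts on Hk2 differed (edgeR log2 difference -1.29 over 11 libraries, adjusted p = 0.0434).

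Mlxipl, which encodes ChREBP, a carbohydrate-responsive transcription factor with Pklr and Khk among its known targets, was at 216 to 259 CPM in ARNT Flox and 298 to 385 CPM in AHR Flox (edgeR log2 change -0.54 over 11 libraries, adjusted p = 0.0334). Among 12 genes of pyruvate oxidation, Pdhb and Dld, subunits of pyruvate dehydrogenase, were lower in ARNT Flox, and Pdhb rose in ARNT KO (edgeR log2 change 0.40 over 11 libraries, adjusted p = 0.0464). Of 28 genes of gluconeogenesis, Mdh1, Gcgr (the glucagon receptor) and Cebpa were lower in ARNT Flox, which is 10.7% of the list beside 10.9% of all genes called. Among 23 tested genes of glycogen, Gyg, the primer of glycogen synthesis, was higher. Of 8 tested genes of fructose, polyol and glycerol, Glyctk and Slc2a5 (the fructose transporter GLUT5) were lower and Aldh1b1 higher. Among 31 genes of insulin signaling none was called between the control lines, and Grb14, an adaptor that inhibits the insulin receptor, fell in AHR KO over 11 libraries from 61.5, 52.0 and 62.5 to 42.3, 41.1 and 46.6 CPM (edgeR log2 change -0.44, adjusted p = 0.0451).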

How the data were processed

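Poly-A RNA of mouse liver was sequenced, 1 library for each of 12 samples, with RNA extracted in Trizol and libraries made with NEBNext Ultra II, per the labels. The authors deposited raw counts per gene, 1 column per library; the submitters' processing notes name mm10 as the build, STAR in versions 2.6.0c and 2.5.4b, DESeq2 1.20.0, bcl2fastq 2.20 and R 3.5.1. How reads were counted, with which annotation and whether by strand, is not given in the sources used here, so reads of overlapping or antisense genes cannot be told apart.

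From the deposited counts, 13968 genes passed filterByExpr in edgeR 4.0.16 at its settings of 10 reads and, in total, 15. Libraries were scaled with TMM, and 1 fit of all 12 libraries gave 4 contrasts, tested two-sided with the quasi-likelihood F test and adjusted by Benjamini-Hochberg over all genes. The biological coefficient of variation was 17.5%. The code was tested on simulated data. The labels tell the 3 samples of a genotype apart only by number, so p-values measure the spread between those samples. No libraries of a group were duplicates (chi-square per degree of freedom 17.0 to 248.5).

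The 30 genes, the pathway and marker lists, the contrasts and the fit without ARNT KO replicate 3 were chosen with earlier results of these data known. Shown in every library are genes called in the fits of 12 or 11 libraries and, per role, those with the smallest p in a knockout contrast or the highest mean CPM. Other genes shown with single libraries were picked after their values were seen, as were all sequences printed. Markers were of hepatocytes, Kupffer cells and macrophages, endothelial cells, stellate cells, lymphocytes, cholangiocytes, erythrocytes, skeletal muscle, adipocytes and pancreas; erythrocyte markers summed to 13.6 to 30.2 CPM, adipocyte markers to 7.35 to 28.7 CPM and pancreas markers to 6.64 to 15.7 CPM. The replicate numbers share no animals by the labels. Residuals of same-numbered control libraries correlated above 0.1 in all 3 pairs, so the blocked value is given for that contrast. Between ARNT KO and ARNT Flox these correlations were -0.037, -0.0075 and -0.012, so blocked values there are given only as an alternative. For AHR KO and AHR Flox they were 0.014, 0.05 and 0.141. Alternatives were other scalings and filters, DESeq2 1.42.0, limma-voom (limma 3.58.1), a fit of the groups in a contrast alone, the replicate block, and leaving out each library. 1 gene of the pathway lists is not reported here.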

Additional observations from a re-analysis of the deposited data

How the results depend on the processing

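Counts of genes called have no direction, and many moved, as given next. No other result changed direction past its threshold under any of the 21 planned and 2 added alternatives. With a library left out in turn, genes called ranged from 5 to 136 for AHR KO (11 with all libraries), 1 to 193 for ARNT KO (8), 1 to 194 for the difference between the knockout effects (6) and 12 to 1532 between the control lines (46); the highest value of each came without ARNT KO replicate 3. Of the 30 genes, 0 to 0 were called for AHR KO and for the difference, 0 to 2 for ARNT KO and 0 to 5 between the control lines. DESeq2 called 359, 56, 148 and 572 genes in these comparisons, with 1 of the 30 for ARNT KO and 3 between the control lines. For AHR KO, no filter gave 28 genes and a filter at 1 CPM in 3 libraries gave 19. For ARNT KO, limma-voom gave 5 genes and only the groups of the contrast gave 1. The replicate block gave 3 genes for ARNT KO and 23 between the control lines, and changed no other count by more than 1.5 times over 12 libraries. The control lines alone gave 1615 genes and 6 of the 30, and 2139 and 11 with the block. Without ARNT KO replicate 3 and with the block, the counts were 84, 141, 128 and 1420 genes, with 1 of the 30 (Dak) for ARNT KO and 5 between the control lines. The cause of these shifts was not tested. With ARNT KO replicate 3 left out, its group has 2 libraries, assumed to vary like the other groups. No scaling moved the median of all genes by more than 0.1 on the log2 scale.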
